A study of Mus musculus with 8 samples.

Results

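The genes that decide between death and survival of the intestinal cell were examined in the epithelium of lactating mice with and without RANK. The set held 33 genes of the 54532 in the deposited count table: members of the BCL2 family, caspases, inhibitors of apoptosis proteins, death factors released from mitochondria, the apoptosome scaffold, and an adaptor and an inhibitor of death receptors. They were chosen by name, matched through their Ensembl identifiers with GENCODE M21, and were grouped by textbook role into 7 pro-survival members, 19 pro-death members and 7 with neither role here.

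Intestinal epithelial cells were taken from 4 WT and 4 Rank-knockout mice at lactation day 5, with 1 library per sample. Rank-knockout mice lack Rank (Tnfrsf11a), the receptor for RANKL, in the intestinal epithelium through a floxed allele and Cre driven by the Villin1 promoter, and controls were littermates on a C57BL/6J background. The study's methods describe age-matched littermates and a broad age range over all its mice, without the ages of these females. Cells were released from the tissue with a dissociation reagent and strained, not sorted, so cells of other types could be carried along. Each read of the 3′ mRNA-seq libraries came from the 3′ end of a transcript.

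Apoptosis follows a mitochondrial or a death receptor route. In the mitochondrial route BH3-only proteins block the pro-survival BCL2 proteins or activate BAX and BAK, which open the outer mitochondrial membrane and let out cytochrome c, and APAF1 then assembles the apoptosome that activates caspase-9. In the death receptor route FADD brings caspase-8 to the receptor, where cFLIP competes with it, and XIAP holds active caspases in check until DIABLO displaces it. The intestinal epithelium is renewed continually, cells are shed at villus tips, and NF-κB, which RANK can activate, is known to induce several survival genes.

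Promoter sequences are shown for called members in which a search for the κB consensus or the p53 half-site, each 10 letters long, found a match. RefSeq windows of 300 bases on GRCm38.p6, from 250 bases before the start site to 50 after it, were given for 31 of the 33 members. Bik and Pmaip1 were not matched. The κB consensus was found on either strand in 5.80% of all 32851 windows and in 5 of the 43 windows of members, those of Bcl2l1, Xiap, Bbc3 and Casp4. The p53 half-site was found in 8.36% of all windows and in 2 of the 43 windows of members, those of Bax and Bmf. Below, the match is in capitals. The Bcl2l1 stretch lies on the minus strand at chr2:152830940-152830967, before an alternative start site and inside an untranslated exon of another transcript, and the Xiap stretch lies on the plus strand at chrX:42068410-42068439, just after a start site in the 5′ untranslated region. The Bax stretch holds the 250 bases before the start site, on the minus strand at chr7:45466899-45467148.
Bcl2l1, κB match: tgtttgtgGGGGGTCTCCagcatacgcc
Xiap, κB match: cccctcctccGGGACCCTCCcctcgggaac
Bax, p53 half-site match: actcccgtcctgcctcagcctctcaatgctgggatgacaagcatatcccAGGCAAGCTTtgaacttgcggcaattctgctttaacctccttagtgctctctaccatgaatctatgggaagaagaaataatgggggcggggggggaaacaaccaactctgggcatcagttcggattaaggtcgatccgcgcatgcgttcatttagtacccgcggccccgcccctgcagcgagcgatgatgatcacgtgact
These matches are a description of the letters in the windows.

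Total counts ran from 1530781 to 4335653 per library. Levels are given as CPM, counts scaled to a common library size by TMM, which sets the libraries level over the bulk of their genes, and differences are Rank-knockout over WT on the log2 scale. Differences were tested with edgeR's quasi-likelihood test over 9855 genes, and a gene was called at a Benjamini-Hochberg adjusted p under 0.05. Tnfrsf11a itself had 41.7 to 77.4 CPM in WT, against 27.2 to 47.2 CPM in Rank-knockout libraries, and was called lower at -0.67 (SE 0.22, adjusted p = 0.0322) with overlapping ranges. Its 3′ tags may lie outside the deleted part, in which case they do not check the labels. In bulk samples, fewer cells of a type and less RNA per cell cannot be told apart. The labels number the mice of each genotype but say nothing more on how they were housed or processed, so p-values measure the spread between these samples.

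Of the 33 members, 30 passed the filter on low counts, and 4 were called. Bcl2l1, Pmaip1 and Xiap were lower and Bax was higher in Rank-knockout. This is 13.3% of the tested members, beside 30.4% of all tested genes. Among all tested genes 15.8% were called higher and 14.6% lower. The pro-survival members had 2 of 7 called, both lower, and the pro-death members 1 lower and 1 higher of 17 tested. The median log2 fold change was -0.43 over the 7 pro-survival members and -0.11 over the 17 pro-death members, and 0.02 over all tested genes. Libraries of the genotypes did not overlap for 5 of the 30 members, 4 lower and 1 higher, or 16.7%, beside 28.8% of all tested genes.

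**Figure D1:**
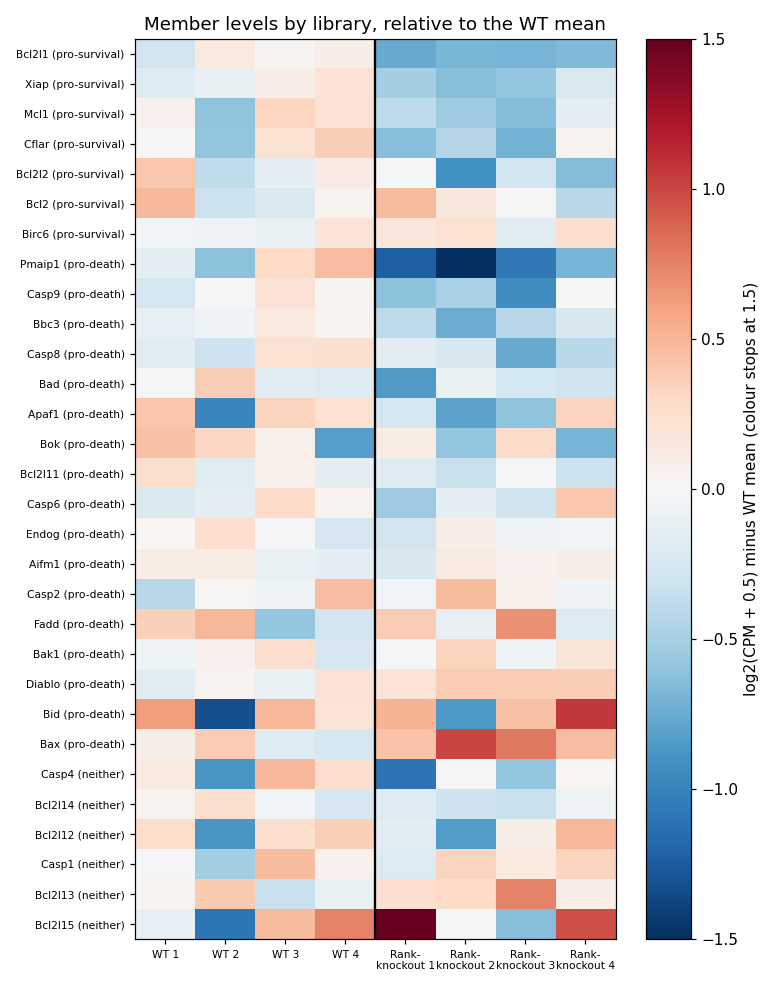
Level of each of the 30 tested members (rows, by class and then by log2 fold change) in each of the 8 libraries (columns), as log2(CPM + 0.5) minus the WT mean, blue for lower and red for higher. The Bcl2l1 and Pmaip1 rows are blue in all 4 Rank-knockout libraries, and WT replicate 2 is blue in many rows, among them Mcl1, Cflar and Apaf1.

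Bcl2l1 (ENSMUSG00000007659, chr2:152780668-152831728 in GRCm38, minus strand) encodes BCL-XL, the BCL2 protein that holds BAX and BAK inactive in many epithelia. It had 99.3, 134.8, 125.0 and 129.8 CPM in WT replicates 1 to 4 and 72.0, 75.4, 74.6 and 76.7 CPM in Rank-knockout replicates 1 to 4. Every Rank-knockout library was below every WT library, and the Rank-knockout libraries lay close together. The means were 122.2 ± 15.8 CPM in WT, against 74.7 ± 2.01 CPM in Rank-knockout (SD, n = 4 each), a log2 fold change of -0.71 (SE 0.14, 95% interval -1.01 to -0.42, adjusted p = 0.00175), or 1.64-fold lower.

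Mcl1, the short-lived BCL2 protein that binds BAK and several BH3-only proteins, had 195.2, 122.4, 234.2 and 217.0 CPM in WT, against 142.4, 127.6, 119.2 and 170.3 CPM in Rank-knockout. WT replicate 2 lay within the Rank-knockout range, far below the other WT libraries. Its log2 fold change was -0.45 (SE 0.19, interval -0.84 to -0.05, adjusted p = 0.0809), the first member outside the threshold. Without WT replicate 2 it was -0.63 with an adjusted p of 0.00507. Without Rank-knockout replicate 4 it was -0.56 with an adjusted p of 0.0393. These were the lowest WT and the highest Rank-knockout library, so leaving out either was bound to widen the difference. With any other library left out, the adjusted p ran from 0.126 to 0.206. With library totals in place of TMM the log2 fold change was -0.25 (adjusted p = 0.324).

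Bcl2, the founding member of the family, ran from 12.7 to 22.6 CPM in WT, against from 11.9 to 22.5 CPM in Rank-knockout, a log2 fold change of 0.11 (interval -0.43 to 0.64). Bcl2l2, which encodes BCL-W, had only 8 to 18 counts per WT library and 8 to 28 per Rank-knockout library, and its interval ran from -1.14 to 0.31. A change of the size seen in Bcl2l1 lies within that interval and could not be told from none at this depth. Exons of Bcl2l2 overlap those of Gm20521 on the same strand, so that some reads may have been left out as ambiguous.

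Of the inhibitors of apoptosis proteins, Xiap was called and Birc6 was not. Xiap (ENSMUSG00000025860, chrX:42059679-42109656 in GRCm38, plus strand), which binds and blocks caspases, had 149.3, 159.6, 184.4 and 199.7 CPM in WT, against 121.0, 110.3, 114.7 and 146.3 CPM in Rank-knockout. The genotypes did not overlap, although WT replicate 1 and Rank-knockout replicate 4 lay close together. The log2 fold change was -0.49 (SE 0.15, interval -0.80 to -0.18, adjusted p = 0.0189). With library totals in place of TMM, under which 34.8% of all tested genes were called, it was -0.29 with an adjusted p of 0.129, and without the 50 most abundant genes in the library sizes it was -0.36 with an adjusted p of 0.067. It also missed the threshold without WT replicate 4 (adjusted p = 0.0586), without Rank-knockout replicate 2 (0.0629) or without Rank-knockout replicate 3 (0.0589), at log2 fold changes of -0.44, -0.44 and -0.46.

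Birc6, a very large inhibitor protein that also carries a ubiquitin-conjugating domain, ran from 108.6 to 133.1 CPM in WT, against from 103.4 to 138.4 CPM in Rank-knockout. Its log2 fold change was 0.13 (interval -0.17 to 0.43). Cflar, which encodes cFLIP, had 149.3, 98.8, 174.8 and 193.0 CPM in WT, against 95.9, 110.3, 91.3 and 155.0 CPM in Rank-knockout. WT replicate 2 and Rank-knockout replicate 4 each lay on the other genotype's side. The log2 fold change was -0.43 (SE 0.21, adjusted p = 0.135). Without WT replicate 2 it was -0.61 with an adjusted p of 0.0159. Without Rank-knockout replicate 4 it was -0.62 with an adjusted p of 0.0261. With each library left out in turn the value ran from -0.62 to -0.33, and Cflar was not called in any other alternative.

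**Figure D2:**
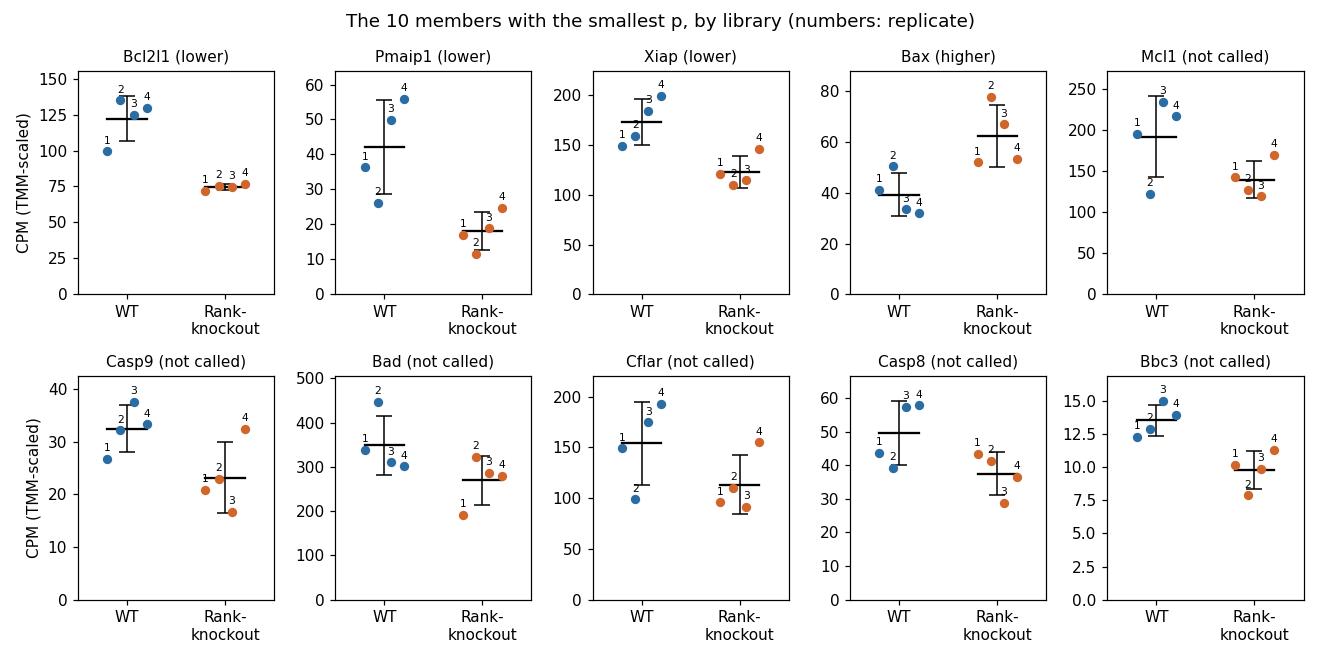
Level in CPM (vertical axes, from 0) of the 10 members with the smallest p, in each library (points, numbered by replicate), with the mean and SD of each genotype (lines and bars, n = 4). Bcl2l1, Pmaip1, Xiap, Bax and Bbc3 do not overlap between genotypes, and WT replicate 2 falls among the Rank-knockout libraries for Mcl1, Cflar and Casp8.

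Among the pore-forming effectors, Bax (ENSMUSG00000003873, chr7:45461697-45466898 in GRCm38, minus strand) had 41.1, 50.4, 33.5 and 32.0 CPM in WT, against 52.0, 77.7, 67.0 and 53.2 CPM in Rank-knockout. Every Rank-knockout library was above every WT library, with WT replicate 2 and Rank-knockout replicate 1 close together. The means were 39.2 ± 8.47 and 62.5 ± 12.2 CPM (SD, n = 4 each), a log2 fold change of 0.64 (SE 0.19, interval 0.23 to 1.04, adjusted p = 0.0192). The adjusted p rose to between 0.0521 and 0.0793 when any of 5 libraries was left out, WT replicates 1, 3 or 4 or Rank-knockout replicates 2 or 3, at log2 fold changes of 0.52 to 0.62. Exons of Bax overlap those of Gm45808 on the same strand, so that some reads may have been left out as ambiguous. Gm45808 had 0 counts in all libraries, which cannot show how many, since reads in shared exons count for neither gene.

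Bak1, the partner of BAX at the mitochondrion, ran from 405.4 to 577.8 CPM in WT, against from 464.9 to 609.0 CPM in Rank-knockout. The log2 fold change was 0.10 (interval -0.22 to 0.42). Bok, a related effector, ran from 5.99 to 15.1 CPM in WT, against from 6.59 to 13.5 CPM in Rank-knockout, a log2 fold change of -0.28 (interval -0.94 to 0.37).

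Among the BH3-only proteins, Pmaip1 encodes NOXA, which binds MCL1. It had 36.3, 26.1, 49.9 and 55.9 CPM in WT, against 17.0, 11.6, 18.9 and 24.8 CPM in Rank-knockout. The genotypes did not overlap, with WT replicate 2 the lowest of its genotype and Rank-knockout replicate 4 the highest of its own. The log2 fold change was -1.18 (SE 0.26, interval -1.74 to -0.62, adjusted p = 0.00414), or 2.26-fold lower. This is a pro-death member, and its change was in the same direction as those of Bcl2l1 and Xiap.

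Bbc3 encodes PUMA, which binds all the pro-survival BCL2 proteins. It had 12.3, 12.9, 15.0 and 14.0 CPM in WT, against 10.2, 7.88, 9.89 and 11.3 CPM in Rank-knockout, so the genotypes did not overlap, but its log2 fold change of -0.45 was not called (SE 0.23, adjusted p = 0.148). Bad, which is held inactive by survival kinases, ran from 300.9 to 446.7 CPM in WT, against from 191.0 to 322.3 CPM in Rank-knockout (log2 fold change -0.38, adjusted p = 0.114). Bcl2l11, which encodes BIM, gave -0.21 (interval -0.72 to 0.29).

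Bid, which caspase-8 cleaves to link both routes, ran from 1.77 to 8.22 CPM in WT, against from 2.63 to 11.3 CPM in Rank-knockout, with an interval of -0.51 to 1.52. WT replicate 2 held 24.5% of the mean of the other WT libraries. Bik had 0 to 4 counts per WT library and 0 to 17 per Rank-knockout library. Bmf had 0 to 4 and 1 to 3 counts, and neither passed the filter on low counts.

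The initiator caspases were not called. Casp9, the caspase of the apoptosome, had 26.7, 32.2, 37.6 and 33.3 CPM in WT, against 20.8, 22.9, 16.6 and 32.4 CPM in Rank-knockout. Only Rank-knockout replicate 4 lay within the WT range. The log2 fold change was -0.47 (SE 0.21, interval -0.92 to -0.02, adjusted p = 0.106), and without that library it was -0.68 with an adjusted p of 0.0197. With each library left out in turn the value ran from -0.68 to -0.35, and Casp9 was not called in any other alternative.

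Casp8, the caspase of death receptors, ran from 39.3 to 57.9 CPM in WT, against from 28.8 to 43.5 CPM in Rank-knockout (log2 fold change -0.38, adjusted p = 0.139). Casp2, an initiator linked to DNA damage and centrosome number, gave 0.09 (interval -0.41 to 0.58). Casp6, the effector caspase of the set, ran from 128.1 to 181.7 CPM in WT, against from 101.9 to 196.4 CPM in Rank-knockout, a log2 fold change of -0.11 (interval -0.51 to 0.29). Apaf1 ran from 16.0 to 42.5 CPM and from 18.0 to 40.3 CPM, and its lowest WT value was again that of replicate 2.

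None of the factors released from mitochondria was called. Diablo ran from 13.7 to 18.0 CPM in WT, against from 17.8 to 20.3 CPM in Rank-knockout. Its log2 fold change was 0.33 (SE 0.20, adjusted p = 0.220), and with library totals it was 0.53 with an adjusted p of 0.0458. Its exons overlap those of Gm49027 on the same strand. Aifm1, a flavoprotein of the intermembrane space that can move to the nucleus, gave 0.00 (interval -0.29 to 0.29), and Endog, a mitochondrial nuclease, gave -0.09 (interval -0.41 to 0.24). Fadd had 7 to 46 counts per library and gave 0.09 (interval -0.58 to 0.76).

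The 7 members with neither role held no call among the 6 tested. The inflammatory caspases Casp1 and Casp4, which cut gasdermin D, gave log2 fold changes of 0.15 (interval -0.29 to 0.58) and -0.39 (interval -1.13 to 0.36). Casp12 had at most 2 counts in any library and was not tested. Bcl2l13, a mitochondrial receptor for autophagy, gave 0.31 (interval -0.12 to 0.74), and Bcl2l14 gave -0.25 (interval -0.60 to 0.11). Bcl2l12 and Bcl2l15 had at most 28 and 57 counts in a library, with intervals of -0.81 to 0.88 and -0.26 to 2.03. Exons of Bcl2l15 overlap those of Gm43064 on the same strand.

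**Figure D3:**
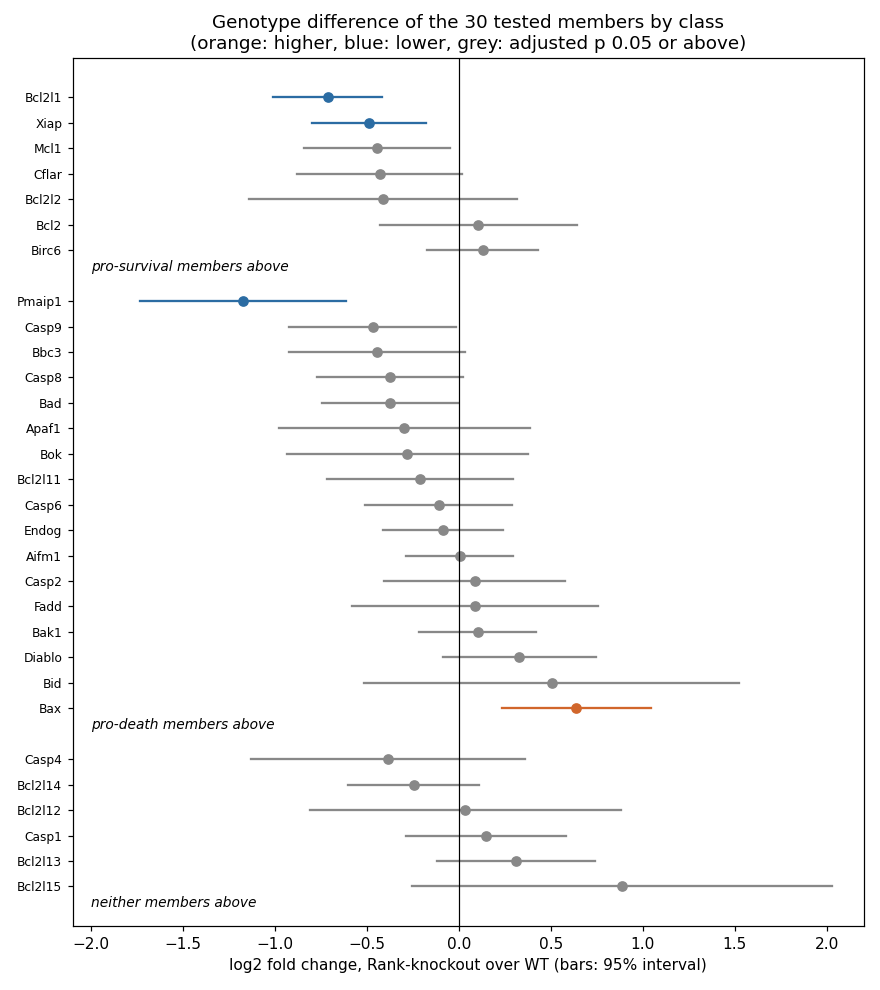
Log2 fold change, Rank-knockout over WT (horizontal axis), of the 30 tested members (rows, by class) with 95% intervals (bars). Bcl2l1, Xiap and Pmaip1 are called lower and Bax higher, and the intervals of low-count members such as Bcl2l15 and Bid are the widest.

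WT replicate 2, the deepest WT library, had the lowest CPM of its genotype for 13 of the 30 tested members, or 43.3%, beside 28.0% of all tested genes. Its part in the results was not tested. Without it the log2 fold change of Bid was 0.03 in place of 0.50, that of Bcl2l12 -0.33 in place of 0.04, that of Bcl2l15 0.42 in place of 0.88 (0.38 without Rank-knockout replicate 1, which held 57 of its 102 Rank-knockout counts) and that of Apaf1 -0.58 in place of -0.30, none of them called. With it left out, 5 members were called lower, Bcl2l1, Mcl1, Pmaip1, Xiap and Cflar, and Bax was still called higher, where 31.7% of all tested genes were called. Without Rank-knockout replicate 4, Bcl2l1, Mcl1, Pmaip1, Casp9, Xiap and Cflar were called lower, where 33.3% of all tested genes were called.

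To set survival members against death members in each library, the mean log2 CPM of the 17 tested pro-death members was subtracted from that of the 7 pro-survival members. The difference was 0.89, 0.69, 0.84 and 1.08 in WT replicates 1 to 4 and 0.83, 0.69, 0.55 and 0.63 in Rank-knockout replicates 1 to 4. The genotypes overlapped through WT replicate 2. The means were 0.88 ± 0.16 and 0.68 ± 0.12 (SD, n = 4 each), a difference of -0.20 in Rank-knockout. The pro-survival mean alone differed by -0.33 and the pro-death mean by -0.13. With the median of each class in place of the mean, the sign turned. The difference was then 1.84 ± 0.21 in WT and 2.16 ± 0.09 in Rank-knockout, or 0.32 higher. The median level of the pro-death members within a library moved by -0.48 and that of the pro-survival members by -0.16. These are shifts of a middle level, unlike the median log2 fold changes of -0.11 and -0.43 of the same classes.

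**Figure D4:**
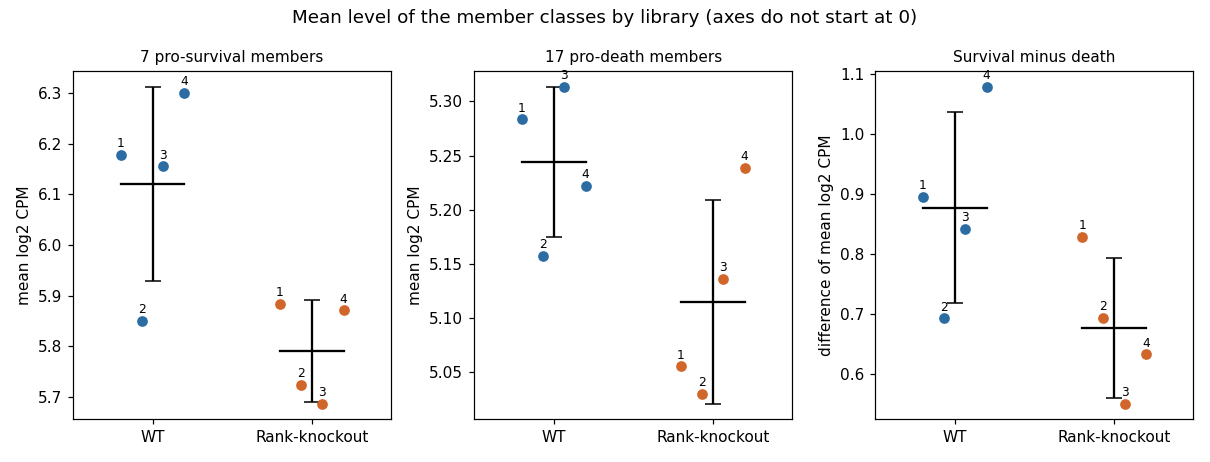
Mean log2 CPM of the 7 pro-survival members (left), of the 17 tested pro-death members (centre) and their difference (right) in each library (points, numbered by replicate), with mean and SD per genotype (n = 4). WT replicate 2, at 0.69, lies within the Rank-knockout range of the difference, 0.55 to 0.83.

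Other genes of these pathways were taken from 5 lists, whose counts stand beside the 15.8% of all tested genes called higher and the 14.6% called lower. Of the death receptor and necroptosis genes 13 of 15 were tested, with 1 called higher and 1 lower and a median log2 fold change of -0.04. Ripk3, the kinase that triggers necroptosis, was higher by 0.99 (SE 0.24, adjusted p = 0.00565), with 7.99 to 9.56 CPM in WT, against 13.9 to 22.3 CPM in Rank-knockout. Tnfrsf1a, the main TNF receptor, was lower at -0.41 (SE 0.14, adjusted p = 0.0418), a call lost in 8 of 16 alternatives, among them library totals (-0.21) and 5 of the 8 left-out libraries. The count of lower genes was 3 without WT replicate 2 and 2 without Rank-knockout replicate 4.

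Of the caspase substrates and death effectors all 10 reported here were tested, with 3 called higher and 2 lower and a median of 0.40. The higher count was 5 with library totals, and 2 under DESeq2 or with any of 5 libraries left out. Lmnb1, a nuclear lamin cleaved in apoptosis that is also a gene of dividing cells, was higher by 1.15 (SE 0.19, adjusted p = 0.000615). Parp1, a DNA repair enzyme that caspases cleave, was higher by 0.98 (SE 0.22, adjusted p = 0.00455), and Gsdmd, the pore protein of pyroptosis, was lower at -0.82 (SE 0.16, adjusted p = 0.00175).

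Of the further survival factors 11 of 16 were tested, with 2 called higher and 2 lower and a median of 0.20. The study reported Birc2, Birc3 and Tnfaip3, with Bcl2l1, as induced by RANKL in organoids. In these libraries Birc2 gave 0.13 (adjusted p = 0.579) and Birc3 -0.26 (adjusted p = 0.482). Tnfaip3, at 1 to 9 counts per library, was not tested. Birc5, which encodes survivin and acts in cell division, was higher by 1.29 (SE 0.17, adjusted p = 0.000189). Tmbim6, an inhibitor of BAX-induced death in the endoplasmic reticulum, was lower at -0.82 (SE 0.16, adjusted p = 0.00141), and Naip6, an inflammasome sensor with the inhibitor of apoptosis fold, was lower at -0.79 (SE 0.19, adjusted p = 0.00651). Naip6 has near-identical copies, so that its reads are uncertain.

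Of the further BCL2 and BH3 proteins 6 of 8 were tested, with 1 called higher, 1 lower and a median of -0.22. Bnip3, a mitochondrial receptor induced by hypoxia, had 11.7 to 16.0 CPM in WT, against 5.54 to 6.74 CPM in Rank-knockout and was lower at -1.28 (SE 0.24, adjusted p = 0.00137). Bclaf1 was higher by 0.43 (SE 0.15, adjusted p = 0.0395), although the genotypes overlapped and the call was lost when any of 6 libraries was left out, all but WT replicate 2 and Rank-knockout replicate 4. Without either of those, or with RLE size factors, 2 genes of the list were called lower.

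Of p53 and its targets 12 of 15 were tested, with 1 called higher and 3 lower and a median of -0.03. Cdkn1a, which encodes the cell cycle inhibitor p21, was lower at -0.84 (SE 0.14, adjusted p = 0.000725). Mdm2, the ligase that degrades p53, was lower at -0.64 (SE 0.16, adjusted p = 0.00658). Aen, a nuclease, was higher by 1.73 (SE 0.36, adjusted p = 0.00255) on 3 to 6 counts per WT library and 15 to 37 per Rank-knockout library. Aen passed the filter on low counts through its Rank-knockout libraries alone, so its call is not independent of the filter. It had too few counts to be tested under a minimum mean CPM of 5, where the count of higher genes was 0. That count was 2 with library totals or without Rank-knockout replicate 4. Pmaip1, Bbc3 and Bax are p53 targets too, and the called ones among them moved in opposite directions.

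**Figure D5:**
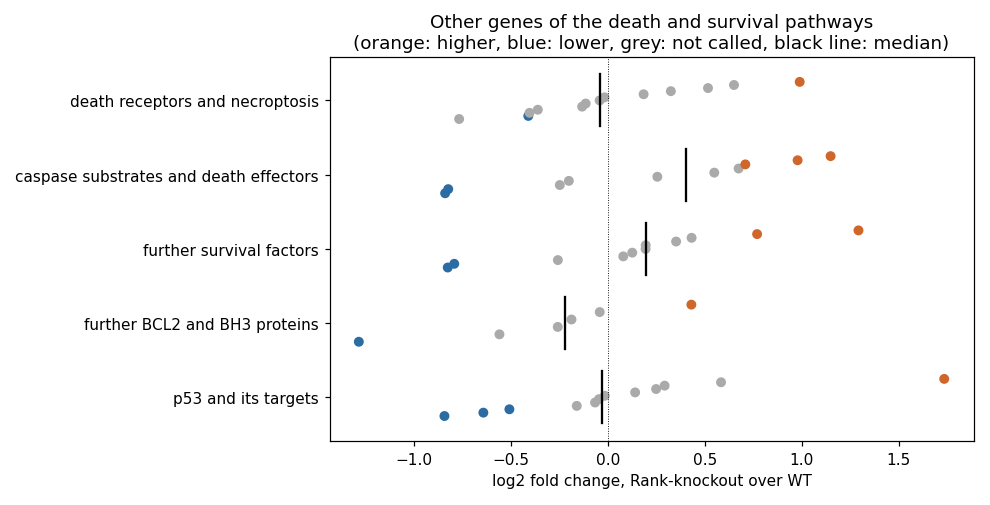
Log2 fold change, Rank-knockout over WT (horizontal axis), of the tested genes (points) of 5 pathway lists (rows), with the median of each list (black line). All 5 medians lie between -0.22 and 0.40, and every list holds genes called higher (orange) and lower (blue).

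Marker RNA of several epithelial cell types differed by genotype. All 12 villus enterocyte markers were lower, with a summed level of 18650 to 25840 CPM in WT, against 9436 to 13960 CPM in Rank-knockout, and all 16 replication and cell cycle genes were higher, with 614.4 to 975.6 CPM and 1526 to 2438 CPM. Of 8 Paneth markers 5 were higher, with 2101 to 4482 CPM and 2912 to 9356 CPM. Of 7 goblet markers 2 were higher and 4 lower, with 13080 to 17410 CPM and 7363 to 10070 CPM. The part of these shifts in the member results was not tested.

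Among markers of other cell types, none of the 6 tested T cell markers of 11 was called, and their sum ran from 185.2 to 282.2 CPM in WT, against 125.4 to 202.3 CPM in Rank-knockout. Of 7 plasma cell markers 4 were tested, with sums of 297.8 to 397.3 CPM and 273.9 to 303.7 CPM, most of them from Sdc1 and Xbp1, which epithelial cells also express. The immunoglobulin gene Igkc was lower at -1.90 (adjusted p = 0.00908), with 25.3 to 59.0 CPM and 3.60 to 21.9 CPM, and Igha gave -1.49 (adjusted p = 0.0664). Stromal or muscle markers (1 of 10 tested, not called) summed to 9.99 to 18.2 CPM and 5.85 to 19.9 CPM, with Lum at 0 in all libraries. Macrophage or dendritic markers (1 of 10 tested, not called) summed to 56.2 to 179.1 CPM and 35.5 to 293.8 CPM, with Adgre1 at 0 in all libraries. Cd74 alone made up much of these sums, with 28.1 to 157.1 CPM in WT and 20.6 to 275.1 CPM in Rank-knockout. No tuft marker (4 of 7 tested) or enteroendocrine marker (6 of 7 tested) was called, with sums of 32.8 to 53.4 CPM and 31.6 to 44.5 CPM for the first and 501.4 to 587.1 CPM and 401.5 to 681.2 CPM for the second.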

How the data were processed

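Bulk 3′ mRNA-seq (QuantSeq FWD) of 8 libraries was analysed from the deposited table. Before deposit, the authors ran BBDuk for trimming, bowtie2 to discard ribosomal, mitochondrial, phiX and adapter reads, STAR for alignment to GRCm38 (mm10 per the labels) with Ensembl genes, and featureCounts for sense-strand counting. The values the authors deposited are raw counts, without normalization. No molecular identifiers are described, and PCR duplicates therefore stay in the counts.

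Of 54532 genes, 33764 had 0 counts in every library, and 54495 identifiers were found in GENCODE M21. The test was edgeR's robust quasi-likelihood F-test (edgeR 4.0.16, R 4.3.3) after filterByExpr and TMM, with genotype as the term, Benjamini-Hochberg adjustment over all tested genes and a threshold of 0.05. SEs came from the F statistic, and intervals cover 95%. CPM are counts over TMM-scaled library sizes, and class means use log2 CPM with a prior count of 2. The fit was tested on simulated data. The members, roles, lists and naming rule were chosen with earlier results of these data known. All members are named, and of each pathway list up to 3 genes of smallest p among those called, besides Birc2, Birc3 and Tnfaip3. Some genes first placed in a pathway list are not reported here, and the counts and median of that list are without them.

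Replicate numbers did not pair the samples. The alternatives tried were other library sizes (RLE, plain totals, totals less the 50 most abundant genes), other filters (none, or a mean CPM of 5), other tools (DESeq2 1.42.0 and voom in limma 3.58.1), a block for replicate number, and removal of each library in turn. For the class difference they were a prior count of 0.5, plain totals, medians, a mean CPM of 5, BCL2 family members alone, the replicate number and removal of each library.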

Additional observations from a re-analysis of the deposited data

Results flagged for a closer look

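Among 62 sets of 4 values, the levels of the 30 tested members and the class difference in each genotype, 3 held a library far from the other 3, where chance gives about 1 in 20, or 3.1. Bcl2l12 had 2.53 CPM in WT replicate 2, against 6.15 to 6.66 CPM in the other WT libraries. Birc6 had 133.1 CPM in WT replicate 4, against 108.6 to 112.3 CPM. Diablo had 17.8 CPM in Rank-knockout replicate 1, against 20.0 to 20.3 CPM in the other Rank-knockout libraries.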

How the results depend on the processing

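Of 480 refitted log2 fold changes (30 members under 16 alternatives), 435 kept their direction and side of the threshold, 10 lost a call, 7 gained one and 28 changed sign, none of them of a called member. Bcl2l1 and Pmaip1 were called under all 16. With library totals 2 members were higher, Bax and Diablo, and Xiap was lost. That scaling moved the median over all tested genes from 0.02 to 0.22 and that over the members from -0.16 to 0.04, and the calls over all genes from 1555 higher and 1438 lower to 2566 and 859. Leaving out 1 library gave 0 to 1 members higher and 2 to 6 lower (over all genes 1020 to 1723 higher and 1097 to 1564 lower), and a class difference of -0.26 to -0.13. The median in place of the mean turned the class difference to 0.32. The causes were not tested.

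Replicate numbers did not pair the samples (correlations of same-numbered deviations 0.05, 0.15, -0.14 and 0.32), and not every sample correlated best with its own number. With the replicate block 1 member was higher and 4 lower, Mcl1 added (log2 fold change -0.43, adjusted p = 0.0484), over all genes 1708 and 1602, and the class difference was -0.20. That block also gave 2 lower genes in place of 1 among the death receptor and necroptosis genes. The further BCL2 and BH3 proteins likewise had 2 in place of 1.

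Sign changes were all of uncalled members, with main values from -0.11 to 0.15. With library totals Casp6 gave 0.0867 and Endog 0.110, and without the 50 most abundant genes 0.0192 and 0.0414. Aifm1 gave -0.00826 with RLE, -0.0105 with DESeq2 and -0.000242 with limma-voom. Bcl2l12 gave -0.0298 with DESeq2 and -0.111 with the replicate block. With 1 library left out the ranges were -0.071 to 0.259 for Bcl2, -0.00693 to 0.173 for Bak1, -0.333 to 0.216 for Bcl2l12, -0.0528 to 0.211 for Casp2, -0.328 to 0.0203 for Casp6, -0.0358 to 0.316 for Casp1, -0.066 to 0.0854 for Aifm1, -0.195 to 0.00564 for Endog and -0.0929 to 0.340 for Fadd. Other uncalled values also moved by over 1.5 times with 1 library left out. They ran from -0.70 to -0.15 for Casp4, -0.51 to -0.12 for Bok, 0.17 to 0.48 for Bcl2l13 and 0.03 to 0.75 for Bid. Bcl2l15 ran from 0.38 to 1.18, Apaf1 from -0.58 to -0.16 and Bcl2l2 from -0.63 to -0.29. Bad ran from -0.47 to -0.24, Bcl2l14 from -0.36 to -0.15 and Birc6 from 0.08 to 0.21. Library totals moved further values by that much, among them Mcl1 to -0.25, Bbc3 to -0.24 and Bad to -0.18. For members with few counts, such as Bcl2l2, Bid and Bcl2l15, the intervals included changes of the size of the called ones.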
